A study of Homo sapiens with 9 samples.

Results

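Plasma membrane and lysosomal transporters for amino acids, their derivatives and amine neurotransmitters were followed in PANC-1, a human cell line from a pancreatic ductal carcinoma. The genes were those of the solute carrier (SLC) families 1, 3, 6, 7, 36, 38 and 43, taken by gene symbol: 37 of the 16750 genes in the deposited table matched, and 30 reached at least 1 count per 1e+06 reads (CPM) in at least 3 of the 9 libraries. Stable clones had been made by lentiviral transduction with an empty vector (pLV-EV, here vector), with SLC22A10 (pLV-SLC22A10, here SLC22A10_OE) or with SLC22A15 (pLV-SLC22A15, here SLC22A15_OE), members of the organic ion transporter family SLC22. All 3 groups were selected with puromycin at 1 µg/ml and then cultured in it at 0.5 µg/ml, so the vector cells carried the empty lentivirus and the selection too. Each group had 3 libraries of total RNA after removal of ribosomal RNA. The labels do not say how many clones each group came from, or whether the libraries came from separate cultures. Sample titles carry the letters A and B, whose meaning is not stated, and the deposited columns do not show which sample is which. P-values therefore measure only the spread between libraries, which may be technical.

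Library totals ran from 28.4 to 42.9 M reads (1 M is 1e+06), and a gene at 1 CPM had a counting SD of 15.2% to 19.0%. The transduced genes followed the labels. SLC22A10 was at 85.4 ± 5.53 CPM (mean ± SD, n = 3) in SLC22A10_OE, with 1 read in the vector libraries together and 0 in SLC22A15_OE. SLC22A15 rose from 6.11 ± 0.571 CPM in vector to 75.9 ± 2.48 CPM in SLC22A15_OE, and was at 3.84 ± 0.357 CPM in SLC22A10_OE. All 4 keratins used as duct markers were in the table, with a summed level of 312 to 343 CPM in vector, 381 to 424 in SLC22A10_OE and 207 to 226 in SLC22A15_OE. The mesenchymal genes VIM and FN1 summed to 2993 to 3179 CPM in vector, 3322 to 3510 in SLC22A10_OE and 2543 to 2714 in SLC22A15_OE. Of the markers of other cell types, 5 lists had 1 gene in the table. CD68 of 3 leukocyte genes was at 15.5 to 19.0 CPM in vector, 23.3 to 24.6 in SLC22A10_OE and 20.2 to 20.4 in SLC22A15_OE, with PTPRC and CD3E not listed. CDH5 of 2 endothelial genes was at 0.901 to 1.45, 6.24 to 7.65 and 2.52 to 2.86 CPM, with PECAM1 not listed. COL1A1 of 3 fibroblast genes was at 0.398 to 0.677, 4.24 to 5.43 and 0.299 to 0.603 CPM, with PDGFRB and LUM not listed. RBFOX3 of 3 neuron genes was at 2.74 to 3.18, 1.72 to 2.52 and 3.04 to 3.77 CPM. CHGA and SYP of 5 islet and neuroendocrine genes summed to 5.57 to 6.61, 10.4 to 11.3 and 8.37 to 9.49 CPM, with INS, GCG and NEUROD1 not listed, and CTRB1 of 4 acinar genes reached at most 0.699 CPM. The part of these markers in the transporter levels was not tested. Libraries vector 1, SLC22A15_OE 1 and SLC22A10_OE 3 stood apart: mitochondrial ribosomal RNA took 0.00958% to 0.0151% of their reads, against 0.0454% to 0.0843% in the other libraries.

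Cells take up amino acids through carriers that differ in what they move and in what drives them. Some use the sodium gradient to concentrate glutamine, alanine or glutamate, some use a proton gradient, and others exchange one amino acid for another. Several members of SLC7 reach the cell surface only when joined to the SLC3A2 heavy chain, and the pair SLC7A5 with SLC3A2 exchanges intracellular glutamine for leucine and other large neutral amino acids. Lysosomal carriers such as SLC38A9 and SLC36A1 take part in reporting amino acid supply to the kinase complex mTORC1. Pancreatic carcinoma cells are known for a high demand for glutamine and cystine. Many of these genes are known targets of ATF4, the transcription factor of the amino acid response, of NRF2 (gene NFE2L2), which acts at antioxidant response elements, or of MYC, which binds E-boxes.

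Promoter sequences are shown for the members that carry the main pattern below: SLC3A2 and its light chains SLC7A5 and SLC7A6, the arginine carrier SLC7A1 and the lysosomal carrier SLC36A1, which were lower in SLC22A10_OE, and, for contrast, SLC1A1, which was higher there. Each runs over the 250 bases before a transcription start, 5′ to 3′ on the gene's strand, and comes from RefSeq (GRCh38.p14). Capitals mark matches to an E-box (CACGTG) or to an antioxidant response element core (TGACNNNGC), searched on both strands. The windows are chr11:62881449-62881698 on the plus strand for SLC3A2, chr16:87869508-87869757 on the minus strand for SLC7A5 and chr16:68264276-68264525 on the plus strand for SLC7A6. They are chr13:29595689-29595938 on the minus strand for SLC7A1, chr5:151447353-151447602 on the plus strand for SLC36A1 and chr9:4490218-4490467 on the plus strand for SLC1A1.
SLC3A2: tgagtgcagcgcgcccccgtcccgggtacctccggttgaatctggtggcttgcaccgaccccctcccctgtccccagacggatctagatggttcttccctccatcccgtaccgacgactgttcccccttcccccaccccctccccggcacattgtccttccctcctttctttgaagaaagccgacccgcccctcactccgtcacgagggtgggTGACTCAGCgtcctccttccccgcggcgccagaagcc
SLC7A5: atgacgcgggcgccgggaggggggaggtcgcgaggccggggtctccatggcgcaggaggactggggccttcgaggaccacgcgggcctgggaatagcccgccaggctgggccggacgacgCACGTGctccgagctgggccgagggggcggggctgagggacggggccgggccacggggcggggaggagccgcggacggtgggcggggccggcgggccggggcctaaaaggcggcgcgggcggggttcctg
SLC7A6: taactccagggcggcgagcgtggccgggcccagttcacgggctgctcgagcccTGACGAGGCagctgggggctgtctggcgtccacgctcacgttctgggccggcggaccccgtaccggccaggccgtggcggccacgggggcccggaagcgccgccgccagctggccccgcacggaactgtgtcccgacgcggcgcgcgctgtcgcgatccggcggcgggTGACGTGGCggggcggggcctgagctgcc
SLC7A1: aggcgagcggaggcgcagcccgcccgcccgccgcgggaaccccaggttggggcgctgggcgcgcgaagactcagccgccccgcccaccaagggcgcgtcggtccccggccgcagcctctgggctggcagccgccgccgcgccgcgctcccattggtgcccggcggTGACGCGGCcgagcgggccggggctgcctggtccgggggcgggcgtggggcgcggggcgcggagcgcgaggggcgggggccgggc
SLC36A1: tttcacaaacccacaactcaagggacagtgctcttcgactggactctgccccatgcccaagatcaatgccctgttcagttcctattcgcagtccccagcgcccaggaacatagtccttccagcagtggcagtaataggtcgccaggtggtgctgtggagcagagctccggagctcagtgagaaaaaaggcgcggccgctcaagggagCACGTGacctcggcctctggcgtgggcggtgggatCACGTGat
SLC1A1: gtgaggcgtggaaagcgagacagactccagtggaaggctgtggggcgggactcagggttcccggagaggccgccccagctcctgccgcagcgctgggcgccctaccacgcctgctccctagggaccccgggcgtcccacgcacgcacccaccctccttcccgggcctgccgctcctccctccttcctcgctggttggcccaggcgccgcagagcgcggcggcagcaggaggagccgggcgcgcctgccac
SLC3A2 held the element core TGACTCAGC at 37 to 29 bases before the start shown, SLC7A1 held TGACGCGGC at 85 to 77 bases, and SLC7A6 held TGACGAGGC and TGACGTGGC at 197 to 189 and 29 to 21 bases. SLC7A5 held an E-box at 130 to 125 bases, and SLC36A1 held a pair of E-boxes at 43 to 38 and 8 to 3 bases. The SLC1A1 window held none of the motifs searched, which also included the amino acid response element core TGATGNAA. The windows shown are a selection and do not represent all members. SLC3A2 had 3 starts listed and SLC36A1 had 2, and for each only the window of 1 start inside the gene span is shown. SLC1A4, SLC38A1, SLC38A4, SLC38A7, SLC38A9, SLC6A13 and SLC7A14, also lower in SLC22A10_OE, held none of these motifs. SLC43A1 and SLC6A16, higher there, held an E-box. Of the 37 genes, 30 had a promoter in the table (48 starts). The element core TGACNNNGC was present in 6 of them, SLC1A3, SLC1A5, SLC3A2, SLC7A1, SLC7A6 and SLC7A7, and in 13.2% of the 27305 genes with a promoter, counting a gene where any of its starts had a match. The E-box was present in 7 (SLC1A5, SLC36A1, SLC38A5, SLC43A1, SLC6A16, SLC7A5 and SLC7A7) against 7.73% of genes, and TGATGNAA in SLC1A3 and SLC1A5 against 3.89%. A match describes letters in this window and is no evidence of binding.

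In SLC22A10_OE the transporter genes were mostly lower than in vector. Of the 30 kept, 24 were called at a limma adjusted p under 0.05 (67.2% of all genes tested were), with 18 lower (32.5% of all genes) and 6 higher (34.7% of all genes). Lower were the heavy chain SLC3A2, its 4 kept light chains SLC7A5, SLC7A6, SLC7A7 and SLC7A11, and the arginine carrier SLC7A1. So were both neutral amino acid exchangers SLC1A4 and SLC1A5, and SLC38A1, SLC38A4, SLC38A7, SLC38A9 and SLC36A1. Also lower were SLC1A3, SLC7A14, the betaine and GABA carrier SLC6A12, the GABA carrier SLC6A13 and the taurine carrier SLC6A6. Higher were SLC7A2, SLC1A1, SLC43A1, SLC6A16, SLC7A4 and SLC38A2. The median log2 fold change of the kept members was -0.37, and that of all genes tested was 0.00. Among called genes, the median size of the change was 0.68 for the transporters and 0.48 for all genes. At least 1 log2 unit was reached by 4 members (SLC7A2, SLC7A5, SLC7A14 and SLC36A1) and by 8.68% of all genes tested. Fold changes from the fit are on the log2(CPM + 1) scale, which understates changes of low genes, and folds without a log2 are ratios of mean CPM. In RNA from whole cultures, fewer cells that express a gene and less RNA per cell cannot be told apart.

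In SLC22A15_OE fewer of the same genes differed from vector. The call was made for 11 of 30 (20.4% of all genes tested), 5 higher (10.8% of all genes) and 6 lower (9.58% of all genes). The median log2 fold change was -0.02 for the members and 0.01 for all genes, and 1 member, SLC7A2, passed 1 log2 unit (0.955% of all genes did). Vector 1 and SLC22A15_OE 1 deviated together, and both with SLC22A10_OE 3, all low in mitochondrial ribosomal RNA. Libraries 2 and 3 did not clearly pair by number. Vector 2 correlated with SLC22A15_OE 2 at 0.315 and with SLC22A15_OE 3 at 0.349, and vector 3 at 0.164 and 0.194. A pairing of libraries by number is thus not established. A fit of the 6 vector and SLC22A15_OE libraries with the number as a block called 7 members higher (20.5% of all genes) and 10 lower (20.2% of all genes). The added calls were SLC7A11 and SLC6A8 higher and SLC36A1, SLC38A1, SLC43A1 and SLC7A1 lower. Between the lines, 22 of 30 differed (62.9% of all genes tested): 17 were higher in SLC22A15_OE than in SLC22A10_OE (30.8% of all genes) and 5 lower (32.1% of all genes). Both comparisons with vector share the vector libraries. Side by side, 3 members were called higher in both lines (SLC6A16, SLC7A2, SLC7A4), where 8.03% of all genes were, and 5 lower in both (SLC1A3, SLC1A4, SLC38A9, SLC6A12, SLC6A13), where 6.29% were. SLC1A1 alone was higher in SLC22A10_OE and lower in SLC22A15_OE (1.26% of all genes), and 13 were lower in SLC22A10_OE and not called in SLC22A15_OE (25.5% of all genes). Without the 3 libraries with little mitochondrial ribosomal RNA, 7 members were higher and 18 lower in SLC22A10_OE (36.8% and 35.0% of all genes), 6 higher and 9 lower in SLC22A15_OE (16.1% and 14.8%), and 17 higher and 5 lower between the lines (33.9% and 34.5%). SLC1A3, SLC7A4 and SLC7A14 reached 1 CPM in no library of at least 1 group and so passed the filter only through the groups in which they were high. Counts above include them, with SLC7A4 among those higher in both lines and SLC1A3 among those lower in both. SLC7A14 was among the members that changed by at least 1 log2 unit in SLC22A10_OE. Among the other 27 members, 5 were higher and 16 lower in SLC22A10_OE, 4 higher and 5 lower in SLC22A15_OE, and 16 higher and 5 lower between the lines. The share of all genes under the same limit was not computed, so these counts have no matching baseline.

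**Figure D1:**
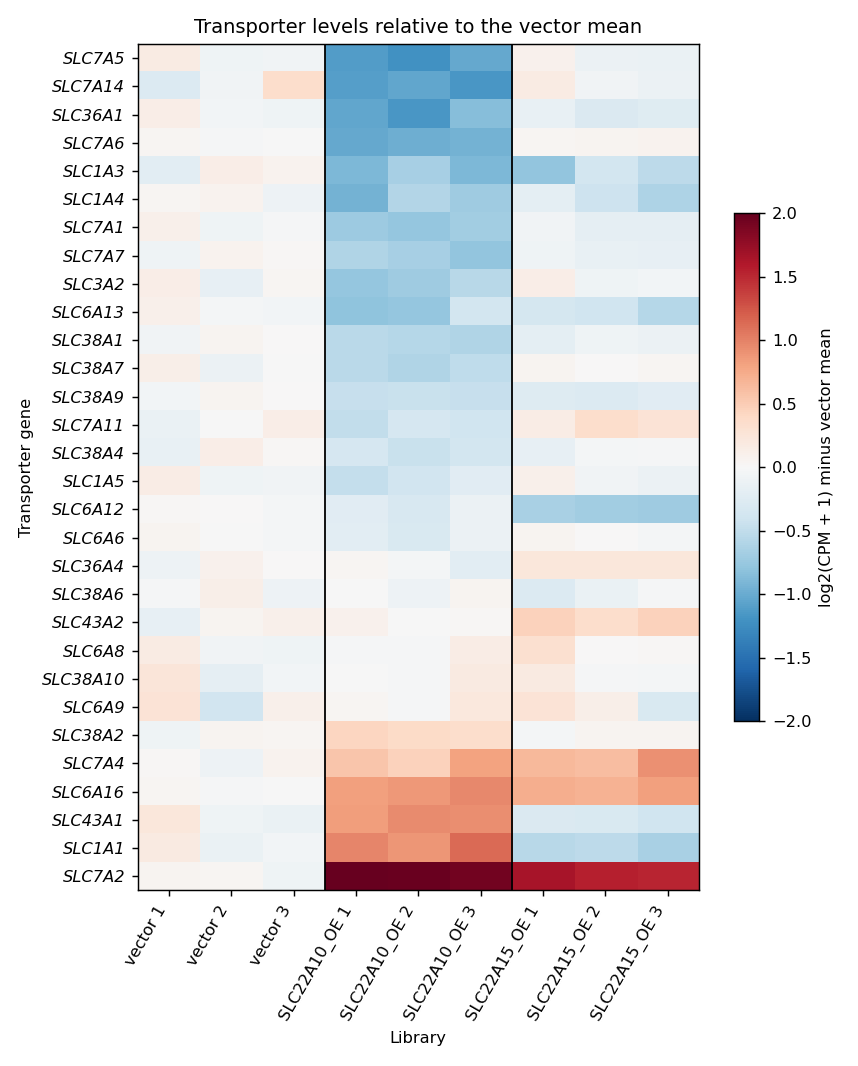
Level of each of the 30 kept transporter genes in each library, as log2(CPM + 1) minus the mean of the 3 vector libraries (red higher, blue lower), with genes ordered by their fold change in SLC22A10_OE. The SLC22A10_OE columns are blue for the 18 members called lower there and red for SLC7A2 and the other 5 called higher, while most SLC22A15_OE cells are pale. Some called members are pale in SLC22A10_OE too, such as SLC6A6 (log2 fold change -0.21) and SLC6A12 (-0.23). SLC6A12 is deeper blue in SLC22A15_OE (-0.68).

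**Figure D2:**
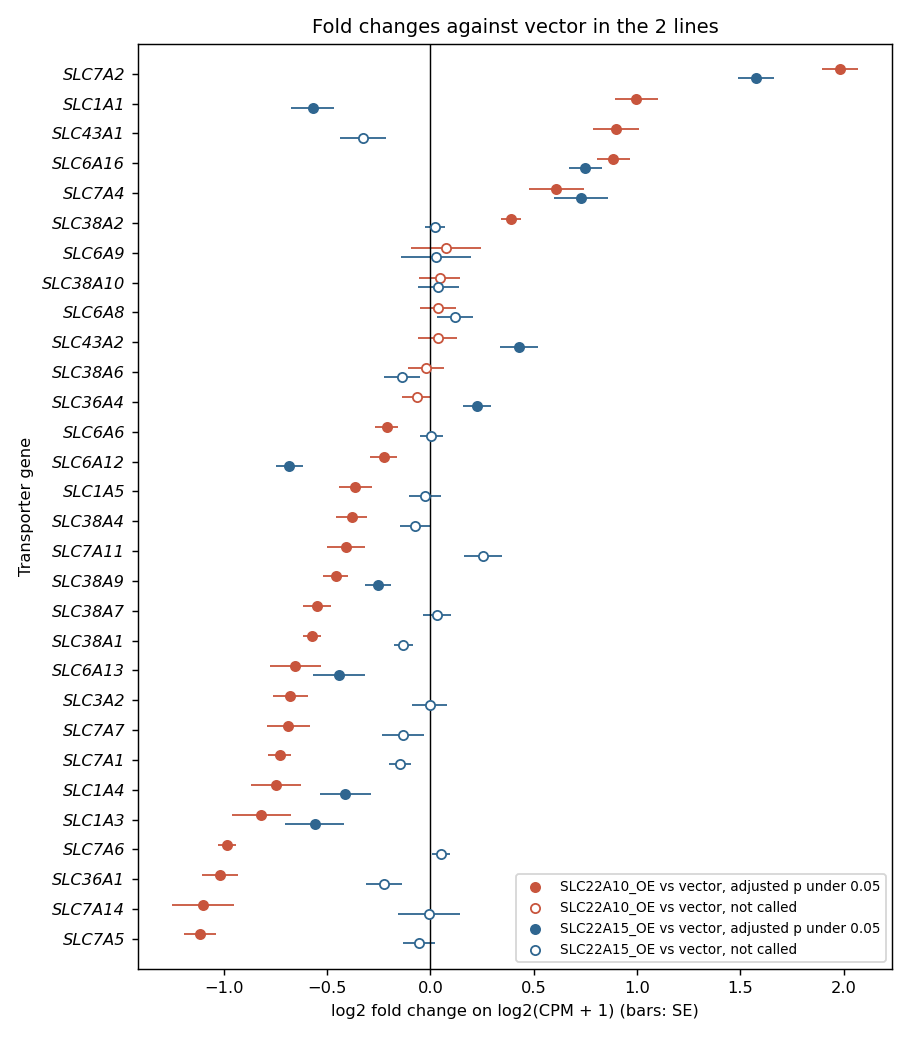
Log2 fold change against vector on the log2(CPM + 1) scale (x axis, bars are SE from limma) for each kept member in SLC22A10_OE (red) and SLC22A15_OE (blue), with filled points for an adjusted p under 0.05 and open points for no call. SLC7A2 lies farthest to the right in both lines, at 1.98 and 1.57, and SLC1A1 is the member with filled points on opposite sides of 0.

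Per kilobase of exon, the order of the vector levels began with SLC38A2 at 238 CPM per kb, SLC1A5 at 57.1, SLC38A1 at 54.4, SLC7A5 at 43.2, SLC6A8 at 42.2 and SLC3A2 at 30.6. SLC38A2 was first in all 3 groups. SLC7A4 was last in vector, at 0.135 CPM per kb, below SLC7A14 at 0.232. These levels per length rest on exon lengths from GENCODE release 29, which may not be the annotation the authors counted on.

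The heavy chain SLC3A2, also called CD98 heavy chain, was at 88.3, 72.0 and 83.1 CPM in vector libraries 1 to 3, at 47.0, 49.0 and 54.8 in SLC22A10_OE and at 89.0, 76.4 and 77.4 in SLC22A15_OE. All 3 SLC22A10_OE libraries lay below all of the others, and vector and SLC22A15_OE overlapped. The log2 fold change was -0.68 (SE 0.08, adjusted p 1.24e-05) in SLC22A10_OE and -0.00 (adjusted p 0.991) in SLC22A15_OE. SLC7A5 (LAT1), which imports leucine and other large neutral amino acids, was at 221, 185 and 189 CPM in vector, 90.8, 84.7 and 97.0 in SLC22A10_OE and 210, 182 and 179 in SLC22A15_OE. Its mean was 2.18-fold lower in SLC22A10_OE than in vector, with no overlap (log2 fold change -1.11, SE 0.08, adjusted p 6.08e-08), and in SLC22A15_OE the change was -0.06 (adjusted p 0.674). Near-identical copies of SLC7A5 in the genome may share its reads: SLC7A5P1 had a log2 fold change of -0.78 and SLC7A5P2 of -0.53 in SLC22A10_OE.

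SLC7A6 exchanges cationic for neutral amino acids. It was the member with the tightest libraries among the light chains, at 140, 135 and 136 CPM in vector, 66.6, 68.8 and 70.7 in SLC22A10_OE and 140, 142 and 144 in SLC22A15_OE. The 3 SLC22A10_OE libraries were at about the same level and far below the rest (1.99-fold lower mean, log2 fold change -0.98, SE 0.04, adjusted p 1.09e-09). Its change in SLC22A15_OE was 0.05 (adjusted p 0.478). SLC7A7, the related exchanger of kidney and gut epithelium, was expressed at a low level, 2.25, 2.62 and 2.52 CPM in vector, 1.27, 1.17 and 1.01 in SLC22A10_OE and 2.25, 2.13 and 2.07 in SLC22A15_OE. It was lower in all SLC22A10_OE libraries (log2 fold change -0.69, adjusted p 6.47e-05) and not called in SLC22A15_OE (-0.13, adjusted p 0.42).

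SLC7A11 (xCT), the light chain that exchanges glutamate for cystine and so feeds glutathione synthesis, was at 12.03, 13.2 and 14.6 CPM in vector, 9.17, 10.3 and 9.75 in SLC22A10_OE and 14.7, 17.2 and 16.1 in SLC22A15_OE. The 3 groups did not overlap: SLC22A10_OE was lowest and SLC22A15_OE highest. The log2 fold change was -0.41 (SE 0.09, adjusted p 0.00141) in SLC22A10_OE and 0.25 (adjusted p 0.0673) in SLC22A15_OE, and the lines differed by 0.66 (adjusted p 3.58e-05). In SLC22A15_OE the change was called without library SLC22A15_OE 1 (0.31, adjusted p 0.0469) and with the replicate block of 6 libraries (0.25, adjusted p 0.00532). Between the lines, all 5 kept genes of the heteromers were higher in SLC22A15_OE than in SLC22A10_OE, by 0.55 (SLC7A7) to 1.06 (SLC7A5) on the log2 scale. Of the other genes of these families, the light chains SLC7A9 and SLC7A10 and the heavy chain SLC3A1 did not pass the filter.

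**Figure D3:**
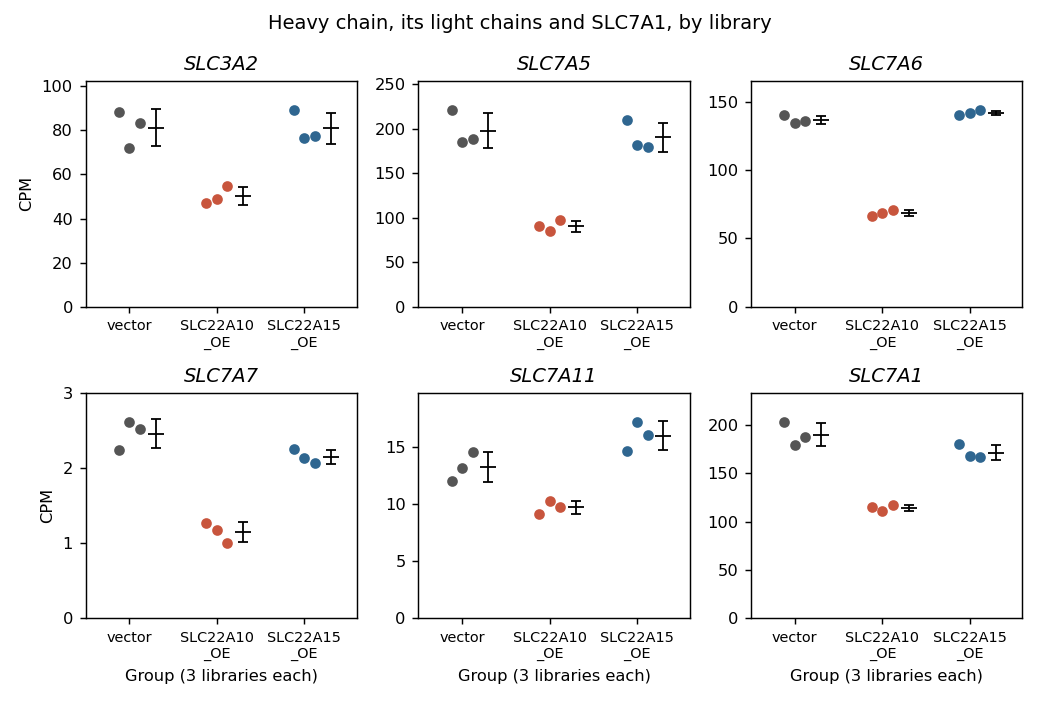
CPM in each library (points) with mean and SD (bars) for the heavy chain SLC3A2, its light chains SLC7A5, SLC7A6, SLC7A7 and SLC7A11, and the arginine carrier SLC7A1, in vector, SLC22A10_OE and SLC22A15_OE (3 libraries each). In each panel the SLC22A10_OE points are below all vector points, as for SLC7A5, with 84.7 to 97.0 CPM against 185 to 221.

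The carriers for arginine and lysine did not move together. SLC7A1 (CAT1) was at 203, 179 and 188 CPM in vector, 115, 111 and 117 in SLC22A10_OE and 180, 168 and 167 in SLC22A15_OE. Its level in SLC22A10_OE was 1.67-fold lower than in vector, with no overlap (log2 fold change -0.73, SE 0.05, adjusted p 1.01e-07). In SLC22A15_OE, whose libraries overlapped with vector, the change was -0.15 (adjusted p 0.0761), and it was called without library vector 2 (-0.19, adjusted p 0.043) or SLC22A15_OE 1 (-0.18, adjusted p 0.0463) and with the block (-0.15, adjusted p 4.41e-05). SLC7A2 (CAT2), which carries the same substrates, was at 2.55, 2.53 and 2.23 CPM in vector, 13.2, 12.5 and 12.02 in SLC22A10_OE and 9.72, 9.07 and 8.91 in SLC22A15_OE. The groups did not overlap in any pair. SLC7A2 rose 5.16-fold in SLC22A10_OE (log2 fold change 1.98, SE 0.09, adjusted p 9.22e-10) and 3.79-fold in SLC22A15_OE (1.57, SE 0.09, adjusted p 5.38e-08), and was lower in SLC22A15_OE than in SLC22A10_OE by 0.41 on the log2 scale (-0.41, adjusted p 0.00128).

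SLC7A2 lies on chromosome 8, and the 26 other tested genes within 5 Mb of it had a median log2 fold change of 0.53 in SLC22A10_OE and 0.42 in SLC22A15_OE, against 0.12 and 0.18 over the 448 other tested genes of the chromosome. For the other 29 kept members, the median of the genes within 5 Mb ran from -0.21 (SLC36A4) to 0.25 (SLC1A5) in SLC22A10_OE and from -0.15 (SLC36A4) to 0.08 (SLC1A5) in SLC22A15_OE. The part of the region in the change of SLC7A2 was not tested.

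The remaining members of the cationic branch were low. SLC7A4, whose substrates are not settled, was at 0.338, 0.225 and 0.371 CPM in vector, 0.93, 0.801 and 1.30 in SLC22A10_OE and 1.05, 1.01 and 1.47 in SLC22A15_OE. It had 33 reads over the 3 vector libraries, and both overexpressing lines were above all vector libraries (log2 fold change 0.61, adjusted p 0.00117, and 0.73, adjusted p 0.00144). SLC7A14, a lysosomal relative, was at 1.72, 2.14 and 3.18 CPM in vector, 0.543, 0.601 and 0.468 in SLC22A10_OE and 2.70, 2.13 and 2.05 in SLC22A15_OE. Its SLC22A10_OE libraries were below all others (log2 fold change -1.10, SE 0.15, adjusted p 2.7e-05), and in SLC22A15_OE the change was -0.01 (adjusted p 0.987). SLC7A4 reached 1 CPM in no vector library and SLC7A14 in no SLC22A10_OE library. Each passed the filter only through groups in which it was high, so these changes are a description.

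Of the sodium-coupled glutamate carriers, SLC1A1 (EAAT3), which also takes up cysteine, moved in opposite directions in the lines. It was at 6.89, 5.34 and 5.70 CPM in vector, 12.7, 11.8 and 14.2 in SLC22A10_OE and 3.75, 3.85 and 3.45 in SLC22A15_OE. The 3 groups were fully separate, with SLC22A10_OE highest and SLC22A15_OE lowest. The log2 fold change was 1.00 (SE 0.11, adjusted p 2.7e-06) in SLC22A10_OE and -0.57 (SE 0.11, adjusted p 0.00164) in SLC22A15_OE, and the lines differed 3.5-fold (adjusted p 7.72e-08). SLC1A3 (EAAT1), the glutamate carrier of astrocytes, was at 1.08, 1.63 and 1.51 CPM in vector, 0.284, 0.515 and 0.288 in SLC22A10_OE and 0.381, 0.858 and 0.668 in SLC22A15_OE. It reached 1 CPM only in vector, the group through which it passed the filter, so that its lower level in the lines (log2 fold change -0.82, adjusted p 0.000238, and -0.56, adjusted p 0.0141) is a description. In SLC22A15_OE its call was lost without library vector 2 (-0.49, adjusted p 0.0604), vector 3 (-0.53, adjusted p 0.0579) or SLC22A15_OE 1 (-0.44, adjusted p 0.0606). The lines differed by 0.26 (adjusted p 0.135), and by 0.37 without library SLC22A15_OE 1 (adjusted p 0.0446).

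The neutral exchangers of the same family are SLC1A5 (ASCT2), a main route of glutamine uptake in many carcinoma cells, and SLC1A4 (ASCT1), a carrier of serine, alanine and cysteine. SLC1A5 was at 210, 179 and 182 CPM in vector, 136, 145 and 162 in SLC22A10_OE and 204, 181 and 175 in SLC22A15_OE. It was lower in SLC22A10_OE with no overlap (log2 fold change -0.36, SE 0.08, adjusted p 0.00122) and was at -0.03 (adjusted p 0.865) in SLC22A15_OE. SLC1A4 was at 10.7, 10.9 and 9.52 CPM in vector, 4.88, 6.55 and 5.94 in SLC22A10_OE and 8.86, 7.49 and 6.40 in SLC22A15_OE. Neither line overlapped with vector, while the lines overlapped with each other. The log2 fold change of SLC1A4 was -0.75 (adjusted p 0.000126) in SLC22A10_OE and -0.41 (adjusted p 0.0295) in SLC22A15_OE. The SLC22A15_OE call was lost without vector 1, vector 2, SLC22A15_OE 2 or SLC22A15_OE 3 (adjusted p 0.0513, 0.0906, 0.0795 and 0.128). The difference of SLC1A4 between the lines (0.34, adjusted p 0.028) was lost without SLC22A15_OE 1, SLC22A15_OE 2 or SLC22A10_OE 1 (adjusted p 0.119, 0.0605 and 0.127) and without the 3 libraries with little mitochondrial ribosomal RNA (0.25, adjusted p 0.0775).

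SLC38A1, SLC38A2 and SLC38A4, sodium-coupled carriers of small neutral amino acids, lie next to each other on chromosome 12 (GRCh38.p14 positions 46183063 to 46269043, 46358188 to 46372773 and 46764761 to 46832431) and did not change together. SLC38A2 (SNAT2), which cells are known to induce when amino acids run short, was at 1120, 1233 and 1219 CPM in vector, 1608, 1558 and 1510 in SLC22A10_OE and 1157, 1231 and 1239 in SLC22A15_OE. Its SLC22A10_OE libraries were above all others (log2 fold change 0.39, SE 0.05, adjusted p 1.28e-05). In SLC22A15_OE the change was 0.02 (adjusted p 0.799). SLC38A1 (SNAT1), a carrier of glutamine, was at 484, 525 and 513 CPM in vector, 347, 340 and 334 in SLC22A10_OE and 443, 477 and 470 in SLC22A15_OE. It fell in SLC22A10_OE by 0.57 on the log2 scale (-0.57, SE 0.05, adjusted p 1.96e-07). In SLC22A15_OE its libraries were below all vector libraries by a smaller margin (-0.13, adjusted p 0.0587), a change that was called without library vector 1 (-0.16, adjusted p 0.017), with the block (-0.13, adjusted p 6.38e-06) and without the 3 libraries with little mitochondrial ribosomal RNA (-0.13, adjusted p 0.00363). SLC38A4 was at 26.2 to 28.4 CPM in SLC22A10_OE against 32.4 to 39.5 in vector (-0.38, adjusted p 0.000638), with -0.07 (adjusted p 0.561) in SLC22A15_OE.

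SLC36A1 (PAT1), which moves small amino acids with protons, was at 49.6, 43.7 and 42.7 CPM in vector, 21.6, 19.6 and 24.7 in SLC22A10_OE and 40.9, 36.8 and 38.3 in SLC22A15_OE. It was 2.07-fold lower in SLC22A10_OE (log2 fold change -1.02, SE 0.09, adjusted p 3.57e-07). In SLC22A15_OE all libraries were below vector, and the change of -0.22 (adjusted p 0.0878) was called with the block (adjusted p 0.000115), with DESeq2 (adjusted p 0.0467) and without the 3 libraries with little mitochondrial ribosomal RNA (-0.20, adjusted p 0.0212). SLC38A9, the lysosomal arginine sensor of mTORC1, was at 26.7, 28.7 and 27.9 CPM in vector, 19.8, 20.1 and 19.9 in SLC22A10_OE and 23.0, 22.8 and 23.6 in SLC22A15_OE. The 3 groups were fully separate, with vector highest and SLC22A10_OE lowest (log2 fold change -0.46, adjusted p 2.26e-05, and -0.25, adjusted p 0.00987). SLC38A7, which exports glutamine from lysosomes, was at 38.2, 32.5 and 35.1 CPM in vector, 24.03, 22.8 and 24.4 in SLC22A10_OE and 36.7, 35.4 and 36.2 in SLC22A15_OE. It was lower in SLC22A10_OE (-0.55, adjusted p 1.11e-05) and overlapped with vector in SLC22A15_OE (0.03, adjusted p 0.782), and the lines differed by 0.58 (adjusted p 8.48e-06).

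SLC43A1 (LAT3) and SLC43A2 (LAT4) carry large neutral amino acids without exchange and without a heavy chain. SLC43A1 was at 3.57, 2.70 and 2.57 CPM in vector, 5.99, 6.53 and 6.44 in SLC22A10_OE and 2.22, 2.18 and 1.98 in SLC22A15_OE. It was 2.14-fold higher in SLC22A10_OE (log2 fold change 0.90, SE 0.11, adjusted p 1.12e-05), where SLC7A5, which carries the same kind of amino acid, and its heavy chain SLC3A2 were lower. In SLC22A15_OE all libraries were below vector with a change of -0.33 (adjusted p 0.0544). It was called in 5 of 19 alternatives. These included the block (adjusted p 0.0285), edgeR as run here (-0.47, adjusted p 0.0491) and DESeq2 (-0.47, adjusted p 0.0444). The authors' deposited values did not pass the same limit (-0.47, FDR 0.0541). SLC43A2 was at 7.23 ± 0.811 CPM in vector, 7.41 ± 0.274 in SLC22A10_OE and 10.0 ± 0.482 in SLC22A15_OE, and it rose in SLC22A15_OE (0.43, adjusted p 0.00513). SLC36A4, a proline and tryptophan carrier, was at 52.8 ± 3.49 CPM in vector, 50.5 ± 4.45 in SLC22A10_OE and 61.8 ± 0.238 in SLC22A15_OE (0.23, adjusted p 0.0351). The SLC36A4 call was lost without any 1 of vector 1, vector 3, the 3 SLC22A15_OE libraries or SLC22A10_OE 2 (adjusted p 0.0536 to 0.0947) and when libraries were centred on their medians (0.20, adjusted p 0.0692), a scaling that also called it lower in SLC22A10_OE (-0.19, adjusted p 0.0347).

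Among the SLC6 carriers of amines and osmolytes, SLC6A12 (BGT1), which takes up betaine and GABA, was at 38.9, 38.1 and 37.1 CPM in vector, 32.2, 30.2 and 34.9 in SLC22A10_OE and 23.9, 23.0 and 23.0 in SLC22A15_OE. All groups were separate, and here SLC22A15_OE was the lowest (log2 fold change -0.68, SE 0.06, adjusted p 6.97e-06, against -0.23, adjusted p 0.00763, in SLC22A10_OE). Its neighbour on chromosome 12, the GABA carrier SLC6A13, was at 6.09, 5.43 and 5.33 CPM in vector, 2.76, 2.86 and 4.10 in SLC22A10_OE and 4.16, 4.004 and 3.45 in SLC22A15_OE. Both lines were below vector for SLC6A13 and overlapped with each other (-0.65, adjusted p 0.000463, and -0.44, adjusted p 0.0237). The SLC22A15_OE call of SLC6A13 was lost without vector 1, vector 3, SLC22A15_OE 2 or SLC22A15_OE 3 (adjusted p 0.056, 0.0502, 0.052 and 0.0956). The lines differed in SLC6A13 by 0.21 (adjusted p 0.158), and by 0.35 without library SLC22A10_OE 3 (adjusted p 0.018) and 0.31 without the 3 libraries with little mitochondrial ribosomal RNA (adjusted p 0.0371).

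SLC6A16, an orphan member of the family, was at 6.31, 6.02 and 6.12 CPM in vector, 11.6, 12.1 and 12.9 in SLC22A10_OE and 10.9, 10.6 and 11.6 in SLC22A15_OE. Both lines were far above vector and close to each other, with log2 fold changes of 0.89 (SE 0.08, adjusted p 6.59e-07) and 0.75 (SE 0.08, adjusted p 2.03e-05) and a difference between the lines of -0.14 (adjusted p 0.153). SLC6A6, the taurine carrier, was at 64.7 ± 4.14 CPM in SLC22A10_OE and 74.9 ± 2.44 in vector, with no overlap (-0.21, adjusted p 0.00516), and at 75.2 ± 2.33 in SLC22A15_OE (0.00, adjusted p 0.969). SLC6A8, the creatine carrier, was at 164 ± 16.1 CPM in vector, 168 ± 12.3 in SLC22A10_OE and 179 ± 22.2 in SLC22A15_OE. It was not called (0.04, adjusted p 0.731, and 0.12, adjusted p 0.386) in the fit without covariates. In SLC22A15_OE it was called with the block (0.12, adjusted p 0.000683) and with a term for libraries low in mitochondrial ribosomal RNA (0.12, adjusted p 0.00236), which also called the difference between the lines (0.08, adjusted p 0.0161). A near-identical copy, SLC6A10P, makes the SLC6A8 level uncertain. The glycine carrier SLC6A9, with SLC38A6 and SLC38A10, was not called against vector in either line, apart from SLC38A10 in SLC22A10_OE without the 3 libraries with little mitochondrial ribosomal RNA (0.10, adjusted p 0.0423).

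**Figure D4:**
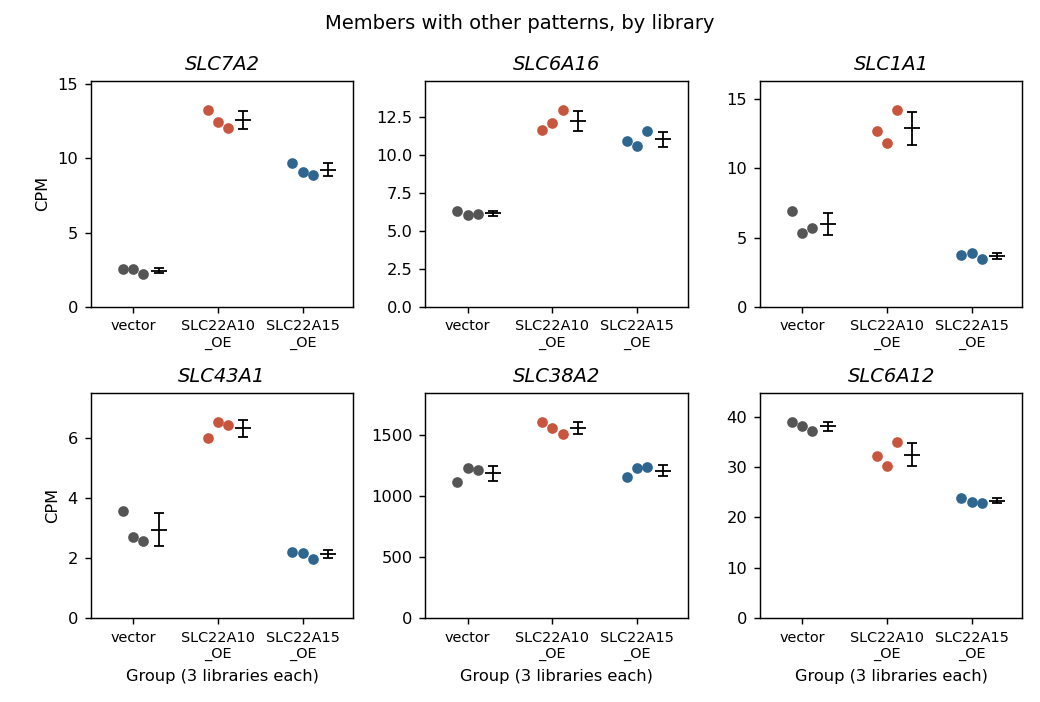
CPM in each library (points) with mean and SD (bars) for 6 members with patterns unlike that of the heteromers, in vector, SLC22A10_OE and SLC22A15_OE (3 libraries each). SLC7A2 and SLC6A16 are above vector in both lines, SLC1A1, SLC43A1 and SLC38A2 are highest in SLC22A10_OE, and SLC6A12 is lowest in SLC22A15_OE, at 23.0 to 23.9 CPM.

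The 7 genes that matched by name but did not pass the filter were SLC1A2, SLC3A1, SLC6A18, SLC6A20, SLC7A9, SLC7A10 and SLC38A5. Just outside the filter lay SLC7A10, at 1.38, 1.01 and 0.636 CPM in vector and below 1 CPM elsewhere, and just inside lay SLC7A4 and SLC1A3, described above. SLC1A2, SLC6A18 and SLC6A20 had no read in 1 or more libraries, which allows up to 3 reads, 0.0691 to 0.108 CPM depending on the library, for counting error only. SLC1A2 and SLC3A1 were at no more than 0.759 CPM in any library.

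The regulators named above were measured in the same libraries. ATF4 was at 121 ± 3.85 CPM in vector, 94.6 ± 6.91 in SLC22A10_OE and 96.5 ± 4.18 in SLC22A15_OE (log2 fold change -0.35, adjusted p 0.000161, and -0.32, adjusted p 0.00161). NFE2L2 was at 104 ± 2.00 CPM in vector and fell to 71.2 ± 0.982 in SLC22A10_OE (-0.55, adjusted p 4.43e-07), against 97.7 ± 3.77 in SLC22A15_OE (-0.09, adjusted p 0.197). MYC was at 238 ± 14.8 CPM in vector, 219 ± 8.56 in SLC22A10_OE (-0.12, adjusted p 0.0592) and 197 ± 3.11 in SLC22A15_OE (-0.27, adjusted p 0.00205). In the promoter windows, the element core TGACNNNGC was held by 6 of the 15 members lower in SLC22A10_OE with a promoter and 0 of the other 10 kept members (13.2% of all genes), the E-box by 4 and 2 (7.73%) and TGATGNAA by 2 and 0 (3.89%). Members were split here by their call, so these are counts without a test. The part of the regulators in the transporter levels was not tested.

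Other genes of amino acid metabolism were read from 9 lists, whose counts stand beside 34.7% of all genes higher and 32.5% lower in SLC22A10_OE. In SLC22A10_OE, 12 of 15 genes of branched chain amino acid breakdown were higher and 2 lower, with a median log2 fold change of 0.34: BCKDHB (0.79), a subunit of the dehydrogenase complex, and its inhibitory kinase BCKDK (0.87) rose, and the cytosolic transaminase BCAT1 fell (-1.40). Of the 12 tested genes of taurine, creatine and GABA metabolism, 9 were higher and 2 lower, with a median of 0.84. ABAT, the GABA transaminase, went from 3.76 ± 0.194 to 18.2 ± 0.284 CPM (2.01, adjusted p 9.57e-10), and the mitochondrial creatine kinases CKMT1A (1.31) and CKMT1B (1.36), near-identical copies that may share reads, also rose. Of 19 genes for glutamine, glutamate, aspartate and proline, 9 were higher and 4 lower. Glutamine synthetase GLUL (0.77) and ASS1 (1.44), which makes argininosuccinate, rose.

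The next counts in SLC22A10_OE also stand beside 34.7% of all genes higher and 32.5% lower. Of 18 genes of cystine and glutathione metabolism, 9 were higher and 8 lower in SLC22A10_OE, with the peroxidase GPX4 (0.83), the reductase GSR (0.76) and GGT1 (0.99) among the former. Of 14 enzymes of serine, glycine and one-carbon metabolism, 5 were higher and 6 lower: AMT rose (1.17), and GLDC (-1.15), both of the glycine cleavage system, and MTHFD1L (-0.82) fell. The list of ATF4 and amino acid response genes had 7 of 18 higher and 4 lower, with a median of 0.09, DDIT4 (1.61) and VEGFA (0.68) higher and ATF5 lower (-1.41). Of 30 genes of amino acid sensing by mTORC1, 12 were higher and 5 lower, among them the higher SESN3 (1.11), CASTOR2 (0.97) and RRAGD (0.84). Other carriers of amino acids and peptides gave 4 higher and 8 lower of 17, with the lysosomal SLC17A5 (0.83) and mitochondrial SLC25A29 (0.76) higher and the mitochondrial branched chain carrier SLC25A44 lower (-0.62). Accessory and trafficking partners gave 4 higher and 4 lower of 9, with CD44, which binds SLC7A11, and STX1A lower (-1.11 and -1.22) and ARL6IP5 higher (0.66). With libraries centred on their medians, all log2 fold changes in SLC22A10_OE shifted by -0.12, and the counts of lower genes became 8 for the ATF4 list, 7 for the glutamine list and 9 for the mTORC1 list. With a term for libraries low in mitochondrial ribosomal RNA, the lower genes were 7 in the glutamine list and 8 in the mTORC1 list.

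In SLC22A15_OE, list counts stand beside 10.8% of all genes higher and 9.58% lower. The ATF4 list had 1 gene higher and 6 lower of 18 in this line, with a median of -0.16. CEBPB (-0.81, adjusted p 7.96e-05), CEBPG (-0.28, adjusted p 0.00328) and ATF4 itself were among those lower. The other 8 lists, of 9 to 30 tested genes, had 5 or fewer genes called in each direction, which are unlike shares. Of 9 accessory and trafficking partners, 1 was higher and 3 lower. The glutamine list had 5 higher and 2 lower of 19, and the cystine and glutathione list 4 and 3 of 18. The serine and glycine list had 1 and 3 of 14, and the mTORC1 list 2 and 1 of 30. Under at least 1 alternative, 14 of the 18 list counts of this comparison moved by over 1.5 times. Genes of these lists with clear separation from vector in SLC22A15_OE were CD44, from 1433 ± 60.9 to 780 ± 27.7 CPM (-0.88, adjusted p 6.82e-08), GSR (0.61, adjusted p 7.93e-07), GLDC (-1.24, adjusted p 1.61e-06), ACSL4 (-0.80, adjusted p 3.64e-06) and RHEB (0.63, adjusted p 1.78e-05). CASTOR1, a cytosolic arginine sensor, was higher in SLC22A10_OE (0.34, adjusted p 0.0165) and lower in SLC22A15_OE (-0.70, adjusted p 0.000562).

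**Figure D5:**
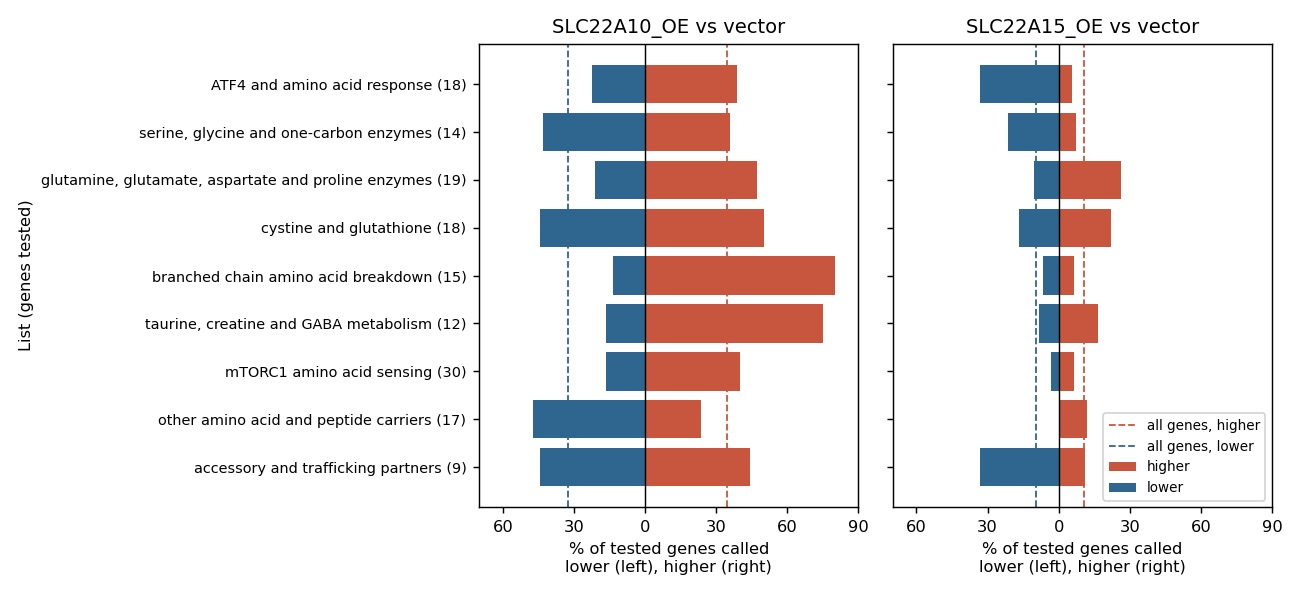
Share of the tested genes of each of the 9 lists called higher (right) or lower (left) against vector, for SLC22A10_OE and SLC22A15_OE, with dashed lines at the shares of all genes tested (34.7% higher and 32.5% lower in SLC22A10_OE, 10.8% and 9.58% in SLC22A15_OE). In SLC22A10_OE the lists of branched chain amino acid breakdown (12 of 15) and of taurine, creatine and GABA metabolism (9 of 12) have the longest bars to the right.

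In the authors' deposited tables, all 30 kept members had the call of the fit used here against vector, in both lines. Of the 37 matched genes, the authors' deposited table for SLC22A10_OE gave 6 higher and 22 lower at an FDR under 0.05, and that for SLC22A15_OE gave 5 higher and 6 lower. The lower genes in SLC22A10_OE included SLC6A18, SLC6A20, SLC7A9 and SLC7A10, which did not pass the filter. These had 4, 4, 41 and 32 reads over the SLC22A10_OE libraries. The share of all genes called by the authors was not computed.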

How the data were processed

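The authors deposited a table of CPM for 16750 human Entrez genes and 9 libraries, and, for each overexpressing line against vector, a table with columns that are, per the file headers, log2 fold change and log2 mean CPM, an F score, a p-value and an FDR. The submitters' processing notes name edgeR, hg38 and mm9, with no role for either build; the aligner, counter and annotation, and any use of strand, were not given in the sources used here. Members were matched by symbol and joined by Entrez number. Members and gene lists were chosen with earlier results of these data known.

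The main test was limma (3.58.1, R 4.3.3) on log2(CPM + 1) with a mean trend, all 9 libraries in 1 fit (6 residual degrees of freedom), on the 14554 genes with at least 1 CPM in at least 3 libraries. P-values were two-sided and Benjamini-Hochberg adjusted over these genes, with a threshold of 0.05. The test was also run on simulated data. Whole reads were recovered from the deposited CPM (100% were whole to within 0.1 read) for edgeR 4.0.16 and DESeq2 1.42.0 as alternatives. The edgeR quasi-likelihood test on these reads called 6 members higher and 18 lower in SLC22A10_OE.

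Column numbers were taken to pair libraries of vector and SLC22A15_OE, since the deviations of every same-numbered pair from the group means correlated at over 0.1 (0.566, 0.315 and 0.194). Pairing by number is weak for libraries 2 and 3: vector 2 with SLC22A15_OE 3 gave 0.349 and vector 3 with SLC22A15_OE 2 gave 0.164. The swapped pairs thus also correlated at over 0.1. Deviations within a group cancel, so these correlations are not independent, and pairing beyond library 1 is not established. Vector 1 and SLC22A15_OE 1 also went with SLC22A10_OE 3 (0.517 and 0.485), the other library low in mitochondrial ribosomal RNA. For library 1, pairing and this trait cannot be told apart. The block of 6 libraries leaves fewer residual degrees of freedom than the main fit. For vector with same-numbered SLC22A10_OE libraries, the next values apply. Correlations of same-numbered vector and SLC22A10_OE libraries were -0.411, 0.143 and -0.265, so those numbers do not pair libraries. Values per library are given for members called with a log2 fold change of at least 0.5 in any comparison and for a fixed few. From each list, members with the smallest adjusted p were named. Of these, 1 is not reported here. The term for, and the fit without, libraries with little mitochondrial ribosomal RNA used a limit of 0.02% of reads.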

Additional observations from a re-analysis of the deposited data

Results flagged for a closer look

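SLC1A1, which takes up glutamate, was called higher than vector in SLC22A10_OE and lower in SLC22A15_OE, and the difference between the lines was itself tested in the limma fit. It was -1.57 on the log2(CPM + 1) scale for SLC22A15_OE minus SLC22A10_OE (SE 0.11, adjusted p 7.72e-08), with means of 3.68 ± 0.204 and 12.9 ± 1.19 CPM (n = 3 each) and 5.98 ± 0.81 CPM in vector. All 3 SLC22A15_OE libraries lay below all 3 SLC22A10_OE libraries, and the call held in all 18 alternatives run for this comparison.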

How the results depend on the processing

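No called member changed direction under any alternative. In SLC22A10_OE against vector, all 24 calls held in the 18 alternatives run; between the lines, 21 of 22 held, with SLC1A4 the exception; in SLC22A15_OE against vector, 7 of 11 held in 19. The SLC22A15_OE count of lower members went from 6 to 10 when a term marked the 3 libraries low in mitochondrial ribosomal RNA, and to 10 with the replicate block of the 6 libraries compared, an alternative chosen after seeing the data, as was leaving out those 3 libraries. Higher members were then 7 in both. That block added 6 calls and changed no other call. Leaving out 1 library gave 4 to 5 higher and 4 to 6 lower. The replicate block over all 9 libraries left the member counts as they were in all 3 comparisons. Over all genes, SLC22A15_OE against vector had 1572 higher and 1394 lower, 2868 and 2740 with the term, 2980 and 2942 with the block of 6, and 2157 lower without those 3 libraries. Centring libraries on their medians shifted log2 fold changes by -0.12 in SLC22A10_OE, -0.03 in SLC22A15_OE and 0.09 between the lines. All genes then split into 3875 higher and 6233 lower in SLC22A10_OE (5047 and 4728 without centring), 1351 and 1683 in SLC22A15_OE, and 5798 and 3713 between the lines (4484 and 4674 without). Members split 6 and 19, 4 and 9, and 19 and 5. Of 54 list counts, 22 moved by over 1.5 times under at least 1 alternative. The causes were not tested. Depth limits SLC7A4 most, with 33 reads in vector.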
